A study of Mus musculus with 15 samples.

Results

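R3_KO is the library of erythroid cells lacking R3, a regulatory element of the mouse α-globin locus. It was taken by its label and its columns in the deposited tables, is 1 of 15 samples of the series, and is set here against the 4 other libraries that lack a single element. NG Capture-C, which cuts crosslinked chromatin with DpnII, ligates it and captures the promoters of chosen genes with oligonucleotides, measured how often each restriction fragment was joined to a promoter. The promoters were those of the α-globin genes (viewpoint Hba), the β-globin genes (Hbb) and Slc25a37, the gene of mitoferrin, which carries iron into mitochondria and is strongly expressed in red cell precursors. Around R3 the Hba table lists 21 fragments, at chromosome 11, 32151882 to 32159635 (mm9), and all 21 passed the minimum of 50 median reads used for calls.

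R3_KO, R1_KO, R2_KO, Rm_KO and R4_KO each lack the element they are named for and have 1 library each. R2R3_KO lacks R2 and R3 and has 3 libraries, and control has 3 libraries in which the labels name no deletion. All of these are fetal liver cultures of the strain F1 C57Bl6/CBA. Per the labels, liver cells of embryonic day 12.5 were grown in culture, depleted of cells carrying the red cell antigen Ter119 and differentiated for 18 hours. The labels do not say whether the single deletions are homozygous, nor how many embryos were pooled. ES is 1 library of E14 embryonic stem cells of the strain 129/Ola, in which the α-globin genes are silent. R1R2_KO, with 3 libraries, was not analysed here.

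In mouse erythroid cells the α-globin genes are switched on by a cluster of 5 elements that together are called a super-enhancer. R1, R2, R3 and Rm lie in introns of Nprl3, a widely expressed neighbour, and R4 lies between Nprl3 and the α-globin genes. R1 and R2 are known as the strong enhancers of the cluster, whereas R3 and Rm have the chromatin marks of enhancers and little enhancer activity of their own in reporter assays.

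The captured sequence was that of 2 nearly identical genes, and both promoters are shown because they bear on what the Hba viewpoint can resolve. The RefSeq promoters (GRCm38.p6, plus strand) lie at chr11:32283422-32283721 for Hba-a1 and chr11:32296242-32296541 for Hba-a2. Capitals mark CCAAT and TATAA.
Hba-a1: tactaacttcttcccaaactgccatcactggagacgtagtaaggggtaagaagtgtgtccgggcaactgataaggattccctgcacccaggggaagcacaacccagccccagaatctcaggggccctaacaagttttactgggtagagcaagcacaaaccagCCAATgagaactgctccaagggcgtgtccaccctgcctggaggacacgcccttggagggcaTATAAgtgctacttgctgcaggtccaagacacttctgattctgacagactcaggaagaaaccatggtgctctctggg
Hba-a2: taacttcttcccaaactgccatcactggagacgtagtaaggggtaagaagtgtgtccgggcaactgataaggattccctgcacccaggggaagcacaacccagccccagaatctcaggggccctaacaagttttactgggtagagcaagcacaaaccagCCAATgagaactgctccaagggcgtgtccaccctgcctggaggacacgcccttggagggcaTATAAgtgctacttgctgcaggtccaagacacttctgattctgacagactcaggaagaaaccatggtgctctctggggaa
Shifted by 3 bases, the windows overlap by 297 bases, and all 297 are identical. Neither holds GATC, the DpnII site. Searched on both strands, CCAAT occurs in 37.4%, TATAA in 24.9% and GATC in 48.0% of 32851 RefSeq promoter windows of the same length. The Hba table has viewpoint gaps at 32182317 to 32184781 and at 32194990 to 32197598 (mm9), and is taken here as contact of both genes together. The capture oligonucleotides and the placing of reads were not examined.

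Values are reads per 100000 reads on the viewpoint's chromosome that lie more than 2 kb from the viewpoint. At Hba this scale rested on 345558 reads in R3_KO, against 402907 in R1_KO, 236920 in R2_KO, 317615 in Rm_KO and 335897 in R4_KO. At Hbb it rested on 222678 reads in R3_KO and 141498 to 221806 in the others, and at Slc25a37 on 97472 and 69516 to 129319. With 1 library per genotype there is no test, so a value of R3_KO is given with its place relative to the lowest and highest of the other libraries. Intervals are 95% Wilson intervals. They cover counting error only, since PCR reads without molecular identifiers are not independent molecules. Contact of the Hba viewpoint with the whole cluster (32139865 to 32170701) was 23576 in R3_KO and 21019 to 25486 in the other single deletions, against 8609 in ES, so R3_KO carried the erythroid contact of its label. At Slc25a37, R3_KO stood apart from the other 4 libraries fragment by fragment, as described below for that viewpoint. Results at Hba do not use those reads but come from the same library. Whether what sets it apart also acts at Hba was not tested.

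Contact with R3 itself was low over 4 adjoining fragments that span 1382 bases (32155867 to 32157248). Their summed contact was 430.6 in R3_KO (interval 409 to 453, 1488 reads), against 1037 in R1_KO, 1343 in R2_KO, 1561 in Rm_KO and 1354 in R4_KO. R3_KO held 31.9% of the median of the others. The fragments were picked because they lie under 50% of that median, so their low values describe the deletion and check the label.

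The core of the gap is a pair of fragments. At 32156382 to 32156487, R3_KO had 49.5, against 152 in R1_KO, 211 in R2_KO, 199 in Rm_KO and 208 in R4_KO, or 24.3% of their median. At 32156488 to 32156889 it had 108, against 336, 419, 485 and 414 in the same order, or 25.8%. Both outer fragments kept more: 32155867 to 32156381 had 172 in R3_KO and 292 to 491 in the others (42.2%), and 32156890 to 32157248 had 101 and 258 to 385 (32.2%). Values this low stop at these fragments. Just outside, 32155335 to 32155866 stood at 86.0% of the median, 32157249 to 32157269, a fragment of 21 bases, at 74.0%, and 32157270 to 32157619 at 91.2%. The fragment of 21 bases was still below all the others, with 21.4 in R3_KO against 25.3 to 36.3. So was 32154079 to 32155101, with 325 in R3_KO against 339 to 495 (73.4%).

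The core did not reach zero in R3_KO, whereas it did in R2R3_KO. Each of the 3 R2R3_KO libraries held 0 reads in both core fragments, where a count of 0 is taken to mean at most about 3 reads per library. Over the 4 fragments R3_KO kept 31.5% of the control mean and R2R3_KO 8.34%: 430.6 in R3_KO, 114 ± 31.7 in R2R3_KO and 1368 ± 26.4 in control (SD, n = 3 each). R2R3_KO and control stand in another table, so these are libraries tabulated apart.

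Remaining reads over the deleted element were found in every single deletion. As a percentage of the median of the libraries that keep the element (R3_KO left out of the median), R3_KO kept 31.9% of the summed contact with R3, R1_KO 41.2% of that with R1, R2_KO 19.2% of that with R2, Rm_KO 26.5% of that with Rm and R4_KO 28.0% of that with R4. The lowest single fragment was at 24.3% in R3_KO, 36.9% in R1_KO, 6.40% in R2_KO, 8.80% in Rm_KO and 11.4% in R4_KO. R3_KO thus had the second highest remainder of the 5 by both measures. What the remaining reads of the single deletions are was not tested.

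**Figure D1:**
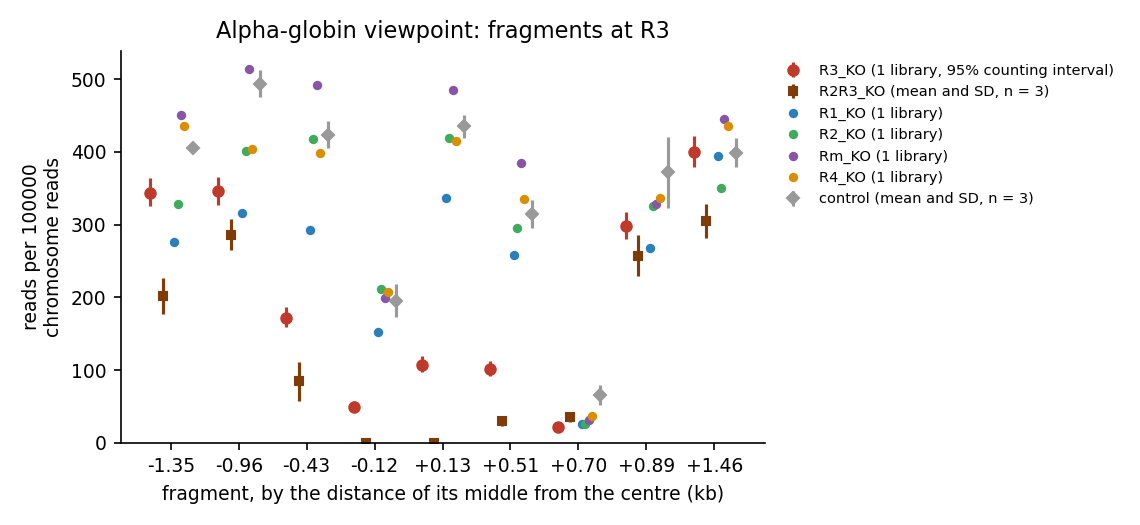
Contact of the Hba viewpoint with 9 neighbouring fragments at R3, ordered by distance (kb) from the centre of the depleted ones, in reads per 100000. R3_KO bars are 95% counting intervals, R2R3_KO and control points are means with SD over 3 libraries, and other points are single libraries; R3_KO is low in 4 adjoining fragments, and R2R3_KO is at 0 in the middle pair.

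Outside the gap, contact with the R3 window lay among that of the other deletions. The other 17 fragments summed to 5086 in R3_KO, against 4845 in R1_KO, 4800 in R2_KO, 6291 in Rm_KO and 5715 in R4_KO, so R3_KO lay inside their range. Of the 17, 11 lay inside the range of the 4 others, 5 below and 1 above, at 72.2% to 118% of the median, with a median of 91.6%. Among the 5 below was the fragment at the window's edge nearest Rm, 32159554 to 32159635, with 112 in R3_KO and 142 to 202 in the others. The 1 above, 32152405 to 32152574, lies near the R2 end of the window and had 281 in R3_KO, 219 in R1_KO, 180 in R2_KO, 269 in Rm_KO and 257 in R4_KO.

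Summed over all 21 fragments, the window held 5516 in R3_KO (5441 to 5593), against 5882 in R1_KO, 6143 in R2_KO, 7853 in Rm_KO and 7069 in R4_KO. This sum includes the gap, and R3_KO was below all 4, at 83.5% of their median (log2 -0.26, -0.28 to -0.24). The size turns on which library is in the median: it is -0.16 without Rm_KO or without R4_KO and -0.36 without R1_KO or without R2_KO. R1_KO and R2_KO, which keep R3, are thus the nearest to R3_KO here.

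The 4 kept elements held the contact seen in the libraries that also keep them. R1 (32144385 to 32146566) had 1098 in R3_KO, 1243 in R2_KO, 1100 in Rm_KO and 1067 in R4_KO. R2 (32150268 to 32151881), a strong enhancer and the nearest element to R3, had 2059 in R3_KO, 1710 in R1_KO, 2279 in Rm_KO and 2068 in R4_KO. In each case R3_KO lay inside the range of the 3 libraries, within 1% of their median (99.8% and 99.6%).

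On the gene side of R3 the same was seen. Rm (32164968 to 32166169) had 1261 in R3_KO, 1035 in R1_KO, 1360 in R2_KO and 1199 in R4_KO (log2 0.07, 0.03 to 0.12). R4 (32168682 to 32169921) had 2041 in R3_KO, 1744 in R1_KO, 2386 in R2_KO and 2005 in Rm_KO (log2 0.03, -0.01 to 0.06). Again both values of R3_KO were inside the range. Fragment by fragment, the 12 fragments of these elements ran from 91.1% to 111% of the median, and the strongest, 32168682 to 32169411 in R4, had 856 in R3_KO and 695 to 1017 in the others. Set against the control mean of the other table, R3_KO held 101% at R1, 98.6% at R2, 102% at Rm and 92.4% at R4. In R2R3_KO, which lacks R2 as well, R1 stood at 75.7%, Rm at 101% and R4 at 85.0% of control.

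The stretches of the cluster between elements also kept their contact in R3_KO. These 37 fragments, outside the elements and the R3 window, summed to 11602 in R3_KO (11495 to 11709), against 10194 in R1_KO, 12323 in R2_KO, 11931 in Rm_KO and 11328 in R4_KO. The ratio to the median was 99.8%, inside the range, and R1_KO was the lowest of the 5. Of the 37, 31 lay inside the range of the others, 4 below and 2 above, at 69.3% to 129% of the median. Control in the other table had 12662 ± 235 (SD, n = 3), of which R3_KO held 91.6%, and the other single deletions 80.5% to 97.3%.

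**Figure D2:**
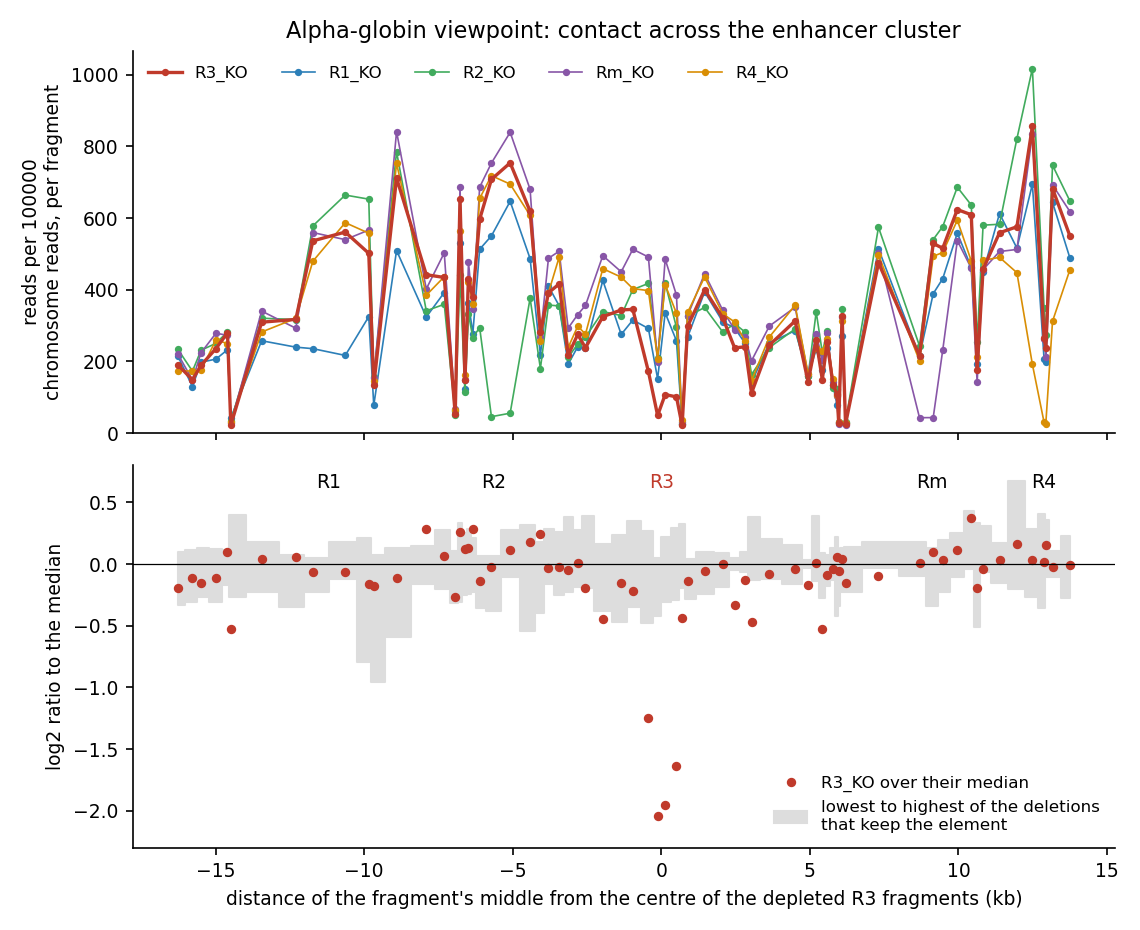
Top, contact of each fragment of the cluster with the Hba viewpoint in the 5 single deletions (reads per 100000, linear axis) by distance from R3 (kb). Bottom, log2 ratio of R3_KO to the median of the deletions that keep the element (points), with their lowest to highest (grey); the R3_KO points leave the grey band deeply only at the 4 fragments of R3.

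At the α-globin genes themselves (32170702 to 32204979, viewpoints left out) R3_KO had 23771, R1_KO 23736, R2_KO 25022, Rm_KO 24090 and R4_KO 21583. R3_KO was at 99.4% of the median and inside the range, and control had 23245 ± 1567 (SD, n = 3). The flanks were lower. The region of Snrnp25, Rhbdf1 and Mpg, widely expressed genes beyond Nprl3 (32080071 to 32135979), had 6986 in R3_KO, 7588 in R1_KO, 8182 in R2_KO, 7473 in Rm_KO and 7731 in R4_KO (log2 -0.13, -0.15 to -0.12).

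Further out on both sides R3_KO was again below all 4. Far upstream (31949955 to 32079920) it had 1313, against 1606 in R1_KO, 1502 in R2_KO, 1402 in Rm_KO and 1503 in R4_KO (log2 -0.19). The downstream flank (32204980 to 32320310) had 5652 in R3_KO, 6879 in R1_KO, 6152 in R2_KO, 6272 in Rm_KO and 5787 in R4_KO (log2 -0.14). Control in the other table had 7670 ± 336 at the upstream genes and 1303 ± 77.1 far upstream (SD, n = 3), of which R3_KO held 91.1% and 101%, and the other single deletions 97.4% to 107% and 108% to 123%. At the downstream flank control had 6241 ± 282 (SD, n = 3), of which R3_KO held 90.6%, below all 3 control libraries, and the other single deletions 92.7% to 110%.

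**Figure D3:**
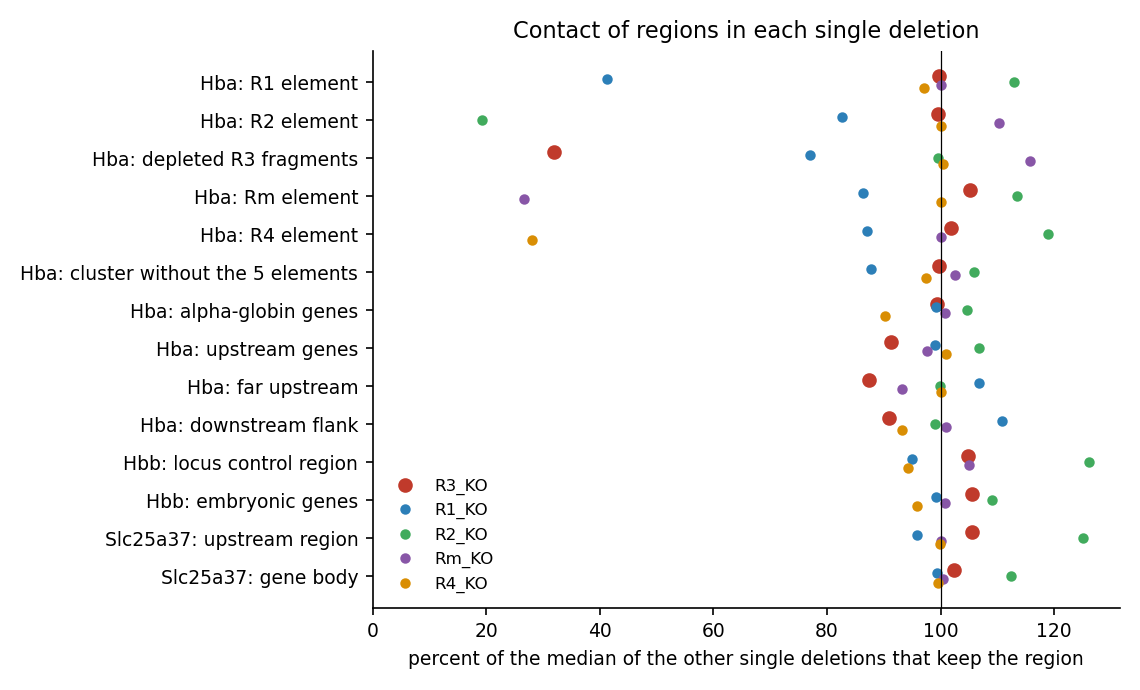
Contact of each region in R3_KO (large points) and the other single deletions, as a percentage of the median of the other deletions that keep the region (linear axis from 0). In the row of each element 1 library is low, the one that lacks it; elsewhere R3_KO lies among the others except at the upstream genes, far upstream and the downstream flank, where it is lowest.

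As a share of all reads, other chromosomes included, mid-range reads were low in R3_KO at all 3 viewpoints. The flank values above are scaled to viewpoint-chromosome reads instead. A library with more reads on other chromosomes has lower shares here, so the order of the libraries can differ between the scales. The distance shares were not computed on the scale of viewpoint-chromosome reads. The place of R3_KO given below therefore holds for the share of all reads only. At 100 to 500 kb the Hba viewpoint had 3.51% of its reads in R3_KO, 4.63% in R1_KO, 4.62% in R2_KO, 3.60% in Rm_KO and 3.61% in R4_KO. The Hbb viewpoint, on chromosome 7, where no element was deleted, had 2.91% in R3_KO, 4.04% in R1_KO, 3.46% in R2_KO, 3.16% in Rm_KO and 3.05% in R4_KO. Slc25a37, on chromosome 14, had 2.73% in R3_KO, 3.48% in R1_KO, 3.27% in R2_KO, 3.29% in Rm_KO and 3.23% in R4_KO. By this share of all reads R3_KO was lowest each time, although Rm_KO and R4_KO came close at Hba. Its difference from the median at Hba was -0.61 points, -0.10 without R1_KO or R2_KO and -1.11 without Rm_KO or R4_KO. At Hbb it was -0.40 points, and -0.25 to -0.55 when 1 library was left out.

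By the same share of all reads, R3_KO was also lowest at 50 to 100 kb. There it had 3.53% at Hba, 2.73% at Hbb and 2.24% at Slc25a37. The others had 3.70% to 4.86%, 2.85% to 3.51% and 2.26% to 2.68%. Of 24 distance shares computed over the 3 viewpoints, R3_KO was below all 4 others in 8, above in 1 and between them in 15. This count was not made for the other deletions, so the 8 have no background. Under 2 kb R4_KO was the lowest of the 5 at every viewpoint, with 5.03% at Hba, 3.03% at Hbb and 3.53% at Slc25a37. R3_KO had 5.47%, 3.63% and 4.41% there. Shares of the same viewpoint add up to all its reads, so they are not independent. The share on other chromosomes, which holds random ligation among other joins, was 43.1% in R3_KO at Hba, 37.1% in R1_KO, 31.3% in R2_KO, 41.9% in Rm_KO and 45.7% in R4_KO. At Slc25a37 it was 42.8% in R3_KO, above the 31.0% to 40.9% of the others. Its part in the low flanks was not tested.

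**Figure D4:**
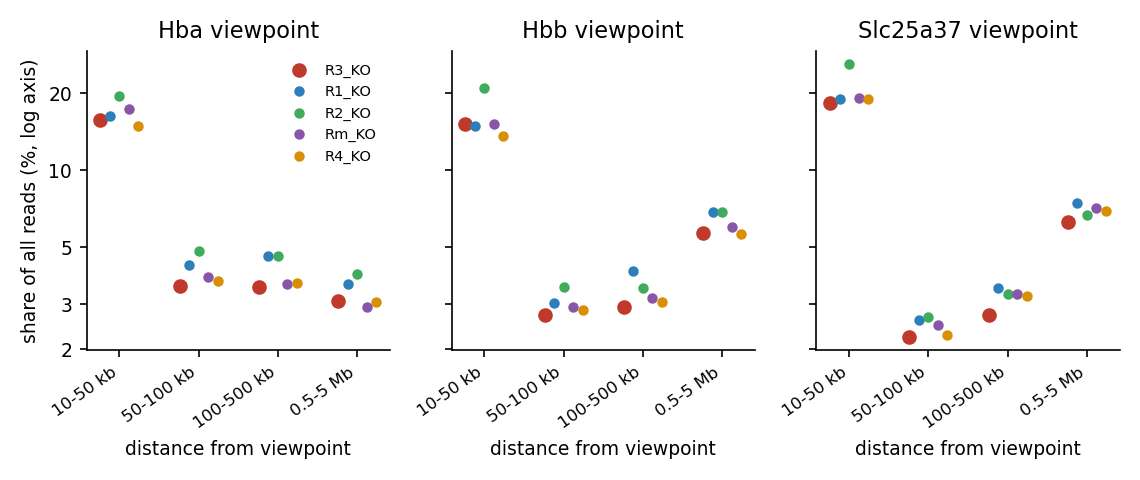
Share of all reads (%, log axis) by distance from each viewpoint in the 5 single deletions, 1 point per library, R3_KO drawn large. By this share, which falls as reads on other chromosomes rise, R3_KO is lowest at 50 to 100 kb and at 100 to 500 kb for all 3 viewpoints.

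Calls of single fragments give the background for these sums. A fragment within 500 kb with a median of at least 50 reads was called when R3_KO was beyond all 4 others and at least 1.5-fold from their median. At Hba 29 of 392 fragments were called lower (7.40%) and 6 higher (1.53%). In both directions together R3_KO had 8.93% called, against 6.63% in R1_KO, 13.3% in R2_KO, 5.61% in Rm_KO and 6.38% in R4_KO, each set in turn against the other libraries. The R3 window held 4 of the lower calls among 21 fragments, the 4 that chose the gap, and 25 lay among the 371 others. The rest of the cluster and the 53 fragments tested at the α-globin genes had no call. The upstream genes had 11 lower of 125, far upstream 5 lower and 3 higher of 18, and the downstream flank 5 lower and 1 higher of 70. Without R1_KO the higher calls numbered 10.

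The called fragments outside the window were weak contacts. The lowest ratio was at 31772964 to 31773234, with 5.50 in R3_KO, 20.8 in R1_KO, 24.5 in R2_KO, 19.5 in Rm_KO and 14.6 in R4_KO. Upstream of Nprl3, 32088666 to 32088873 had 13.6 in R3_KO and 27.9 to 39.9 in the others, and 32087908 to 32087979 had 8.10 and 15.4 to 24.9. The lower fragments 32053652 to 32054657 and 32242419 to 32243039 were at 37.5% and 38.3% of the median. The highest ratio was at 31728489 to 31729503, with 33.6 in R3_KO, 13.9 in R1_KO, 26.6 in R2_KO, 16.4 in Rm_KO and 16.4 in R4_KO. Next came 31776148 to 31776940 at 201%, 32046021 to 32047236 at 166%, 32230752 to 32232064 at 163% and 32062451 to 32062905 at 161% of the median. Over all called fragments outside the window, the median of the other 4 libraries was at most 98.9 (32207738 to 32207927), whereas it was 203 and 417 in the fragments of the R3 core.

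At the Hbb viewpoint R3_KO lay among the other deletions over the β-globin elements. The locus control region, the enhancer cluster of the β-globin genes (chromosome 7, 110994810 to 111023653), had 23178 in R3_KO, 21010 in R1_KO, 27905 in R2_KO, 23209 in Rm_KO and 20849 in R4_KO (log2 0.07, 0.06 to 0.08). The region of the embryonic globin genes (110980132 to 110994809) had 7790 in R3_KO, 7319 in R1_KO, 8052 in R2_KO, 7441 in Rm_KO and 7079 in R4_KO. Both were inside the range. Control had 25205 ± 1544 and 8148 ± 554 (SD, n = 3), of which R3_KO held 92.0% and 95.6%.

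Of 302 Hbb fragments 22 were called lower and 6 higher in R3_KO (9.27% in all), none of them among the 62 tested in the locus control region. R1_KO stood apart here with 31.5% called in both directions, against 11.9% in R2_KO, 9.93% in Rm_KO and 6.62% in R4_KO, and without R1_KO the R3_KO calls numbered 35 in place of 28. The lowest ratio was at 110906373 to 110906673, with 6.74 in R3_KO, 32.5 in R1_KO, 11.3 in R2_KO, 32.2 in Rm_KO and 28.9 in R4_KO. Others were 110880272 to 110881039 at 34.6% and 111078045 to 111078647 at 45.6% of the median. The highest was 110993930 to 110993954, with 39.1 in R3_KO and 12.97 to 35.3 in the others. Below it came 111087754 to 111088014 at 199% and 110860497 to 110861262 at 187%.

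At Slc25a37 the sums over regions and the single fragments of R3_KO told different things. The region upstream of the gene (chromosome 14, 69906474 to 69959889) had 32139 in R3_KO, 29228 in R1_KO, 38138 in R2_KO, 30477 in Rm_KO and 30457 in R4_KO (log2 0.08, 0.06 to 0.09), and the gene body (69859913 to 69900081) had 18160, against 17634, 19938, 17831 and 17659 in the same order. Both lay inside the range. Yet 33 of 220 fragments were called lower and 14 higher, 47 in all (21.4%), against 4.55% in R1_KO, 11.4% in R2_KO, 2.73% in Rm_KO and 2.27% in R4_KO. The upstream region held 16 lower and 11 higher of 121, and the gene body 14 lower and 3 higher of 85.

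Unlike at Hba outside the R3 window, strong contacts were among them. The fragment 69907220 to 69907550, close to the viewpoint, had 84.1 in R3_KO, 584 in R1_KO, 703 in R2_KO, 632 in Rm_KO and 548 in R4_KO, with 36.5 in ES and 751 ± 95.2 in control (SD, n = 3). At 69934535 to 69934598, R3_KO had 12.3, against 85.8 in R1_KO, 131 in R2_KO, 96.3 in Rm_KO and 77.0 in R4_KO, with 7.17 in ES and 183 ± 31.6 in control. At 69957787 to 69958016 it had 5.13, against 61.9, 44.6, 48.2 and 50.8 in the same order, with 1.95 in ES and 50.8 ± 3.34 in control. In each of the 3 fragments R3_KO and ES were both below the 4 other deletions and the control mean. R2R3_KO, which also lacks R3, was not as low: its 3 libraries had 408 to 468, 78.1 to 128 and 30.2 to 86.7 in these fragments. All 3 R2R3_KO libraries lay below the 4 other single deletions in 11 of the 33 lower fragments. The same count over all 220 fragments was not made, so the 11 have no background. R2R3_KO was low over the whole upstream region, with 28119 ± 702 (SD, n = 3), against 29228 to 38138 in the 4 other single deletions.

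Strong contacts were also among the higher fragments, which departed by a smaller fold. The 3 highest ratios were 288%, 240% and 200% of the median, whereas the 3 lowest were 10.4%, 13.5% and 13.8%. At 69925727 to 69927899, R3_KO had 548, R1_KO 163, R2_KO 266, Rm_KO 162 and R4_KO 218, with 259 in ES and 238 ± 56.5 in control. The neighbours 69912964 to 69913477 and 69913478 to 69915016 had 1019 and 940 in R3_KO, 460 to 529 and 378 to 479 in the other deletions, and 758 and 571 in ES, against 528 ± 30.3 and 421 ± 28.4 in control. R3_KO was above all 4 others and above ES in all 3. ES itself was inside the range of the 4 others at 69925727 to 69927899 and above it in the neighbours.

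Over the 220 fragments the log2 ratio of R3_KO to the median of the others had an SD of 0.58, against 0.26 to 0.30 when each other deletion was treated alike. At Hba and Hbb, R3_KO was within the spread of the others, with 0.33 (0.30 to 0.44) and 0.34 (0.32 to 0.82). R3_KO was below all 3 control libraries in 29 of the 33 lower fragments and above them in 12 of the 14 higher ones. These fragments were picked by the same R3_KO values, which favours such counts, and the counts over all 220 were not made. Over the whole upstream region R3_KO held 83.9% of the control mean. ES was below all 4 other deletions in 29 of the 33 lower fragments, but also in 159 of all 220, and above them in 4 of the 14 higher ones and 12 of 220. The log2 ratio of R3_KO to the other deletions and that of ES to control had a correlation of 0.46 across the 220 fragments. These fragments share libraries and are not independent. At Hba the correlation was -0.10 over 392 fragments and at Hbb -0.14 over 302. It was not computed for the other deletions in place of R3_KO, so whether it is particular to R3_KO is not known. The labels give R3_KO the same strain as the other deletions and ES another. What sets this library apart at Slc25a37 was not tested.

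**Figure D5:**
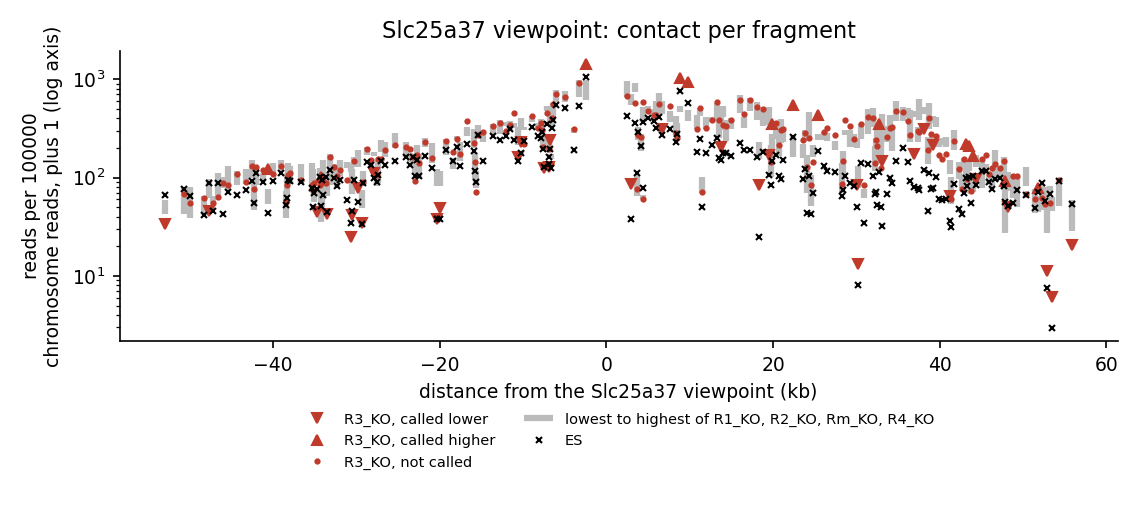
Contact of fragments within 60 kb of the Slc25a37 viewpoint (reads per 100000 plus 1, log axis) by distance (kb), with R3_KO in red, the range of the other 4 deletions in grey and ES as crosses. Fragments called lower or higher in R3_KO are triangles; they lie on both sides of the viewpoint, and the 3 lowest ratios, all upstream, lie nearer ES than the other 4 deletions.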

How the data were processed

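For each of 3 viewpoints the authors deposited raw counts of reads for every DpnII fragment, in 1 table of the single deletions and ES cells and 1 table of the replicated groups, with mm9 coordinates. The submitters' processing notes name Bowtie and Trim Galore, whose versions, like the placing of reads from the near-identical α-globin copies, are not given in the sources used here. In each table of the replicated groups 7 columns fit no sample of the series by name, and they were left aside.

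As viewpoints, the gaps of at least 1500 bases in the tables were taken. Counts were scaled to 100000 viewpoint-chromosome reads more than 2 kb from a gap. Region bounds are approximate and were snapped to fragments by midpoint. R1, R2, Rm and R4 are the fragments under 50% of the median of the other deletions that keep the element, R3_KO left out, in the library lacking it. R3 fragments were chosen by the R3_KO counts themselves. Named fragments are those of the R3 window and elements, and the 5 lowest and 5 highest ratios among calls at Hba and 3 and 3 at Hbb and Slc25a37. The members, regions and lists were chosen with earlier results of these data known. With 1 library per deletion no p-value was computed. Python 3.11.15, pandas 2.3.3, numpy 2.4.6, scipy 1.17.1 and matplotlib 3.10.9 were used. RefSeq gene names and promoters are of GRCm38.p6, another build, and served for names, gene order and the sequences shown.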

Additional observations from a re-analysis of the deposited data

How the results depend on the processing

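No paired analysis was possible because each deletion has 1 library. The R3 window, the upstream genes and the downstream flank stayed below 0 under every alternative, while sums inside the range of the others changed sign under some. Of 171 alternative values, 83 stayed within counting error or within 1.5 times the count, and 88 moved by more. As log2 ratios, the R3 window was -0.24 on reads within 500 kb, -0.37 on the whole genome and -0.29 against the mean of the others. R1 was -0.0501 against the mean and -0.10 over its whole search window. R2 was 0.0614 on the whole genome, 0.0281 against the mean, 0.0492 with fragments under 30% and 0.0283 over its search window. Rm was 0.13 on the whole genome, and R4 0.10 on local reads and -0.011 without the cluster in the scale. The rest of the cluster was 0.0221 on local reads, -0.0187 on the whole genome, -0.0198 without the cluster in the scale, 0.0197 against the mean, 0.0241 under 30% and -0.0709 with whole search windows left out. The α-globin genes were 0.0343 on local reads, -0.10 on the whole genome, 0.0428 with a zone of 5 kb and 0.00991 against the mean. The upstream genes were -0.20 on the whole genome, and the downstream flank -0.067 on local reads, -0.30 on the whole genome and -0.16 without the cluster in the scale. The locus control region was 0.0222 on the whole genome and -0.00404 against the mean; the Slc25a37 upstream region was 0.0412 on local reads, -0.00724 on the whole genome, 0.12 with a zone of 5 kb and 0.00286 against the mean. The share of Hbb reads at 100 to 500 kb was -0.52 points from the mean. The cause of these moves was not tested.

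Counts of calls follow the filter and the unit. With a minimum of 20 reads, a minimum of 100, no filter, bins of 5 kb or 2-fold, Hba outside the window had 90, 8, 401, 12 or 8 lower and 37, 0, 270, 1 or 2 higher; the Hbb total was 69, 7, 558, 13 or 5, and the Slc25a37 total 81, 30, 601, 6 or 16, against 25, 6, 28 and 47 as reported. No p-value stands behind any of these counts.

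Leaving out 1 of the other deletions gave log2 ranges of -0.36 to -0.16 for the window, -0.0936 to 0.0189 for R1, -0.0783 to 0.12 for R2, -0.0212 to 0.17 for Rm, -0.11 to 0.12 for R4, -0.0404 to 0.0344 for the rest of the cluster, -0.0193 to 0.00211 for the α-globin genes, -0.15 to -0.12 for both the upstream genes and the downstream flank, -0.00191 to 0.14 for the locus control region, and 0.0766 to 0.0775 for the Slc25a37 upstream region. Calls ran from 25 to 31 lower and 6 to 10 higher (Hba), with totals of 29 to 35 (Hbb) and 47 to 56 (Slc25a37). The shares at 100 to 500 kb lay off the median by -1.11 to -0.10 points (Hba), -0.55 to -0.25 points (Hbb) and -0.56 to -0.54 points (Slc25a37). Depth limits single fragments most, since those near the minimum of 50 reads have the widest counting error, and a difference between single libraries cannot be told apart from one between genotypes.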
